A study of Mus musculus with 12 samples.

Results

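Interferon-stimulated genes were followed in neutrophils of Card9-/- and wild-type mice, kept for 4 h on immobilized immune complexes or on a control surface. The list held 40 genes, chosen by their known membership of the interferon response. The array carried a transcript cluster, a set of probes that reads 1 transcript region, for 39 of them, out of 28939 clusters tested. A cluster of its own represented 35 members. The other 4 members were read on a cluster that names a further gene: Isg15 with Gm9706, Igtp with Irgm2, Ifi47 with Olfr56 and Gbp2 with Gbp2b. Ifi44 was not analysed here. The signals are log2 values, so that a difference of 1 is a doubling, and they were compared between samples and never between genes.

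The 4 groups were Card9-/- cells on immune complexes (IC), wild-type cells on IC, Card9-/- cells on the control surface and wild-type cells on the control surface. Each group had 3 arrays. There were 3 experiments, numbered in the labels, and 1 array of every group belonged to each. Card9-/- mice were homozygous for the germline Card9tm1Jrld knockout allele on a C57BL/6 background, while the wild-type C57BL/6 mice were purchased, so that genotype and origin of the mice cannot be told apart. The mice were of both sexes and 2 to 6 months old. Neutrophils were prepared from femurs and tibias by hypotonic lysis and a Percoll gradient, the labels give them as Ly6G+, and adherent and non-adherent cells were lysed together. The IC surface carried human serum albumin with antibody against it, and the control surface the albumin alone. Nothing in the sources says that the cells of an array came from 1 mouse. The p-values thus measure how far differences between groups varied from experiment to experiment, part of which may be technical. The fit treats both surfaces of a genotype in an experiment as independent. Where a genotype difference of an experiment recurred on both, as for the B cell markers below, p-values between genotypes can be too small.

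Type I interferons bind IFNAR1 and IFNAR2, whose kinases JAK1 and TYK2 phosphorylate STAT2. Together with IRF9 it enters the factor ISGF3, which binds the interferon-stimulated response element (ISRE) in the promoters of antiviral genes, while interferon gamma acts on the gamma-activated site (GAS). A low, constant supply of type I interferon keeps many of these genes at a tonic level in cells that have met no virus. CARD9 is an adaptor of myeloid cells that joins receptors coupled to the kinase SYK, Fc receptors among them, to BCL10, MALT1 and NF-kB, a factor that also binds the promoters of some interferon-stimulated genes such as Cxcl10 and Irf1.

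Promoter sequences were available for 29 of the 39 measured members in RefSeq on the GRCm38.p6 build, over 250 bases before and 50 after the gene start. The ISRE core, GAAA and again GAAA after a gap of any 2 bases, searched on both strands, lay in the window of 15 of the 29 members (51.7%), against 3.99% of 27025 genes. The GAS motif TTCNNNGAA lay in 7 (24.1%, against 9.55% of genes), and the NF-kB consensus in 4, which were Bst2, Cxcl10, Irf1 and Oasl1 (13.8%, against 5.14% of genes). The motifs were searched independently, and ISRE cores may overlap one another. A match is a match of letters and no measured binding. The stretches below are from 6 members picked as examples of such matches, and hold ISRE matches only (Isg15, Ifit1, Oas3, Gbp2), ISRE and NF-kB matches (Cxcl10) or GAS and NF-kB matches (Irf1). Other members held other combinations, such as ISRE with GAS in Oas1a, or no match. They run in the direction of transcription, and capitals mark the motif matches.
Isg15, chr4:156200819-156200918, minus strand: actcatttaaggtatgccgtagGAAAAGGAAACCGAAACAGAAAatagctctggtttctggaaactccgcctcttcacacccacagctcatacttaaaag
Ifit1, chr19:34640769-34640888, plus strand: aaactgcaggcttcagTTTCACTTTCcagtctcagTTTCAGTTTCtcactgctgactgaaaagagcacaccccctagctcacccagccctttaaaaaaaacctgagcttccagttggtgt
Oas3, chr5:120777660-120777759, minus strand: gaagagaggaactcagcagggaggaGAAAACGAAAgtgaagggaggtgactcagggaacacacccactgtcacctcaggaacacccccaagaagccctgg
Gbp2, chr3:142620563-142620662, plus strand: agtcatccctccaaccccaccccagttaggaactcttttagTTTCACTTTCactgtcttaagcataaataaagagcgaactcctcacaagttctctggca
Cxcl10, chr5:92348980-92349109, minus strand: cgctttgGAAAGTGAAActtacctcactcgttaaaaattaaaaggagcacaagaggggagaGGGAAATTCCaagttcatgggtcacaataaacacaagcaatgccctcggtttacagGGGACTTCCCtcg
Irf1, chr11:53769914-53770013, plus strand: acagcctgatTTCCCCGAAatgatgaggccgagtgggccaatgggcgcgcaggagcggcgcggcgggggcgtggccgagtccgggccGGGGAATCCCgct

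The Card9 signal followed the labels. It averaged 5.99 ± 0.43 in Card9-/- cells and 8.26 ± 0.22 in wild-type cells on IC, and 6.01 ± 0.35 and 8.53 ± 0.19 on the control surface (SD, n = 3 each; limma adjusted p = 0.0049 and 0.0023). The 12 arrays had medians of 5.23 to 5.95, and their correlation across clusters was 0.985 to 0.997 for arrays of 1 experiment, but 0.944 to 0.986 for arrays of different ones. The levels of the members also followed the experiment: 26 of the 39 members were highest in experiment 2 in all 4 groups, and 25 were lowest in experiment 3 in all 4. The array medians had the same order, at 5.71 to 5.75, 5.88 to 5.95 and 5.23 to 5.29 in experiments 1, 2 and 3. The order was thus not particular to the members, and the share of all clusters that had it was not counted. Sex-linked genes set experiment 3 apart too, with Xist at 3.16 to 3.79 and the Y-linked Eif2s3y at 8.72 to 9.18, against 10.4 to 10.8 and 2.25 to 2.73 in experiments 1 and 2, in every group. All comparisons below were therefore made within experiments. Neutrophil markers stood near the top of the scale in every group, Ly6g at 11.8 to 12.6 and S100a8 at 12.4 to 12.7, and 32 of the 39 members had a mean signal above the median cluster. The 7 below it were Isg15, Herc6, Mx1, Mx2, Ifi47, Cxcl9 and Cxcl11. RefSeq annotates 3 members, Mx1, Mx2 and Cxcl11, as transcribed pseudogenes in the C57BL/6J reference, so that their clusters read RNA without the known protein.

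On the control surface, interferon-stimulated genes were mostly lower in Card9-/- than in wild-type neutrophils, by amounts that did not pass the test gene by gene. No member passed an adjusted p of 0.05 in limma (11 of all clusters did, 0.038%). At an unadjusted p under 0.05, 17 members were lower and 0 higher, against 2.22% of all clusters lower and 2.43% higher. The mean difference was below 0 for 35 of the 39 and above 0 for 4, against 42.6% and 57.4% of clusters, and 24 members (61.5%) were lower in each of the 3 experiments, against 12.8% of clusters. The only member higher in all 3 was Mx2, against 18% of clusters. The median difference over the members was -0.33, from -0.96 for Gbp2 to 0.20 for Mx2, where the median of all clusters was 0.03. Within experiments 1, 2 and 3 the median was -0.27, -0.33 and -0.52, with 26, 36 and 35 members below 0. In RNA from a whole cell preparation, fewer cells of a type and less RNA per cell cannot be told apart.

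The sensors of foreign nucleic acid were lower to unequal degrees. Zbp1, which binds Z-form nucleic acids and triggers necroptosis, had signals of 6.63, 7.05 and 6.59 in Card9-/- cells and 7.48, 7.57 and 6.86 in wild-type cells in experiments 1, 2 and 3. It was lower in every experiment, although the groups overlapped (difference -0.54, SE 0.12, limma adjusted p = 0.40). Ifih1, the MDA5 sensor of long double-stranded RNA, differed by -0.33 (SE 0.12), and Dhx58, its regulator LGP2, by -0.23 (SE 0.12). Ifih1 and Zbp1 are the only 2 members on chromosome 2, which also carries Card9. The annotated span of Card9 starts at base 26352187, that of Ifih1 at 62595618 and that of Zbp1, much farther away, at 173206612. For a gene within DNA that flanks the knockout allele, that DNA and the genotype cannot be told apart. How far such DNA reaches in these mice was not tested.

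Among the transcription factors, Irf7 stood apart from Stat2. Irf7, the factor that drives interferon alpha genes, had 7.79, 8.08 and 8.21 in Card9-/- cells and 8.11, 8.45 and 8.80 in wild-type cells, with differences of -0.32, -0.36 and -0.59 in the 3 experiments (mean -0.42, SE 0.10, limma adjusted p = 0.63). Irf9, the DNA-binding subunit of ISGF3, was 8.67 ± 0.12 in Card9-/- cells and 9.02 ± 0.10 in wild-type cells (SD, n = 3 each), with no overlap. Its partner Stat2 averaged 7.03 in both genotypes (difference 0.00, 95% interval -0.24 to 0.25). Irf1 had 9.03, 8.80 and 8.30 in Card9-/- cells against 8.51, 9.31 and 8.82 in wild-type cells. It was thus higher in experiment 1 and lower in the other two.

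The ubiquitin-like modifier ISG15 and the enzymes around it were lower in all 3 experiments. Usp18, the protease that removes ISG15 and dampens the interferon receptor, had 6.72, 7.23 and 5.89 in Card9-/- cells and 7.86, 7.56 and 6.99 in wild-type cells, a mean difference of -0.86 (SE 0.17, 0.55-fold, limma adjusted p = 0.34). Isg15 had 5.06, 5.40 and 4.77 in Card9-/- cells and 5.36, 6.05 and 4.85 in wild-type cells (difference -0.34, SE 0.13). The gap was narrow in experiment 3, and this cluster also names Gm9706. Herc6, the mouse ligase that attaches ISG15 to proteins, differed by -0.29 (SE 0.13).

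The OAS family, synthetases that activate RNase L and their relatives, was lower in every experiment for all 5 of its members, with a median difference of -0.66. Oasl1, which in mice restrains translation of Irf7, had 6.77, 7.13 and 6.97 in Card9-/- cells and 7.52, 7.48 and 7.73 in wild-type cells. Its groups did not overlap (difference -0.62, SE 0.12, limma adjusted p = 0.32), which 3 members showed in this direction, Xaf1, Oasl1 and Irf9, against 0.795% of clusters. The other 4 differed by -0.90 for Oas2, -0.80 for Oas3, -0.66 for Oasl2 and -0.25 for Oas1a. Of the IFIT proteins, which bind viral RNA, Ifit1 was lower throughout (difference -0.83, SE 0.21) and Ifit2 by less (-0.19, SE 0.14). Ifit3 differed by -1.09 and -1.56 in experiments 1 and 3 but by 0.79 in experiment 2, where wild-type cells had 7.11, against 7.90 in Card9-/- cells.

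The remaining antiviral effectors were mixed. Xaf1, an interferon-induced partner of the apoptosis inhibitor XIAP, had the smallest p of all members. It stood at 5.51, 6.16 and 5.62 in Card9-/- cells and at 6.36, 6.60 and 6.21 in wild-type cells (difference -0.63, SE 0.11, limma adjusted p = 0.23). Every Card9-/- value lay below every wild-type value. Rtp4 differed by -0.86 (SE 0.19) and Rsad2, the antiviral enzyme viperin, by -0.85 (SE 0.31), both lower in all 3 experiments. Cmpk2, a nucleotide kinase that lies beside Rsad2 in the genome, differed by -0.01, with 0.61 in experiment 1 and -0.60 in experiment 3. Eif2ak2, which encodes the kinase PKR, Samd9l, Bst2 and Ifi35 lay between -0.22 and 0.07, Trim30a at -0.42, and the Mx genes at -0.26 for Mx1 and 0.20 for Mx2.

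The partners Parp9 and Dtx3l, which modify chromatin and viral proteins, differed by -0.43 and -0.30 but were higher in experiment 1, whereas Parp14, a related ADP-ribosyltransferase, was lower in all 3 (-0.54, SE 0.20). Among the GTPases that attack pathogen vacuoles, Gbp2 had 6.24, 7.22 and 5.45 in Card9-/- cells and 6.64, 8.81 and 6.35 in wild-type cells. This was the largest mean difference of the list on this surface (-0.96, SE 0.28, limma adjusted p = 0.94), and the widest gap came from experiment 2. Gbp3, Igtp and Ifi47 lay between -0.25 and -0.05. The ligands of the chemokine receptor CXCR3 did not share a direction: Cxcl10 had 6.46, 8.36 and 7.50 in Card9-/- cells and 6.03, 9.71 and 7.84 in wild-type cells, Cxcl9 differed by -0.28, and Cxcl11 by 0.11.

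**Figure D1:**
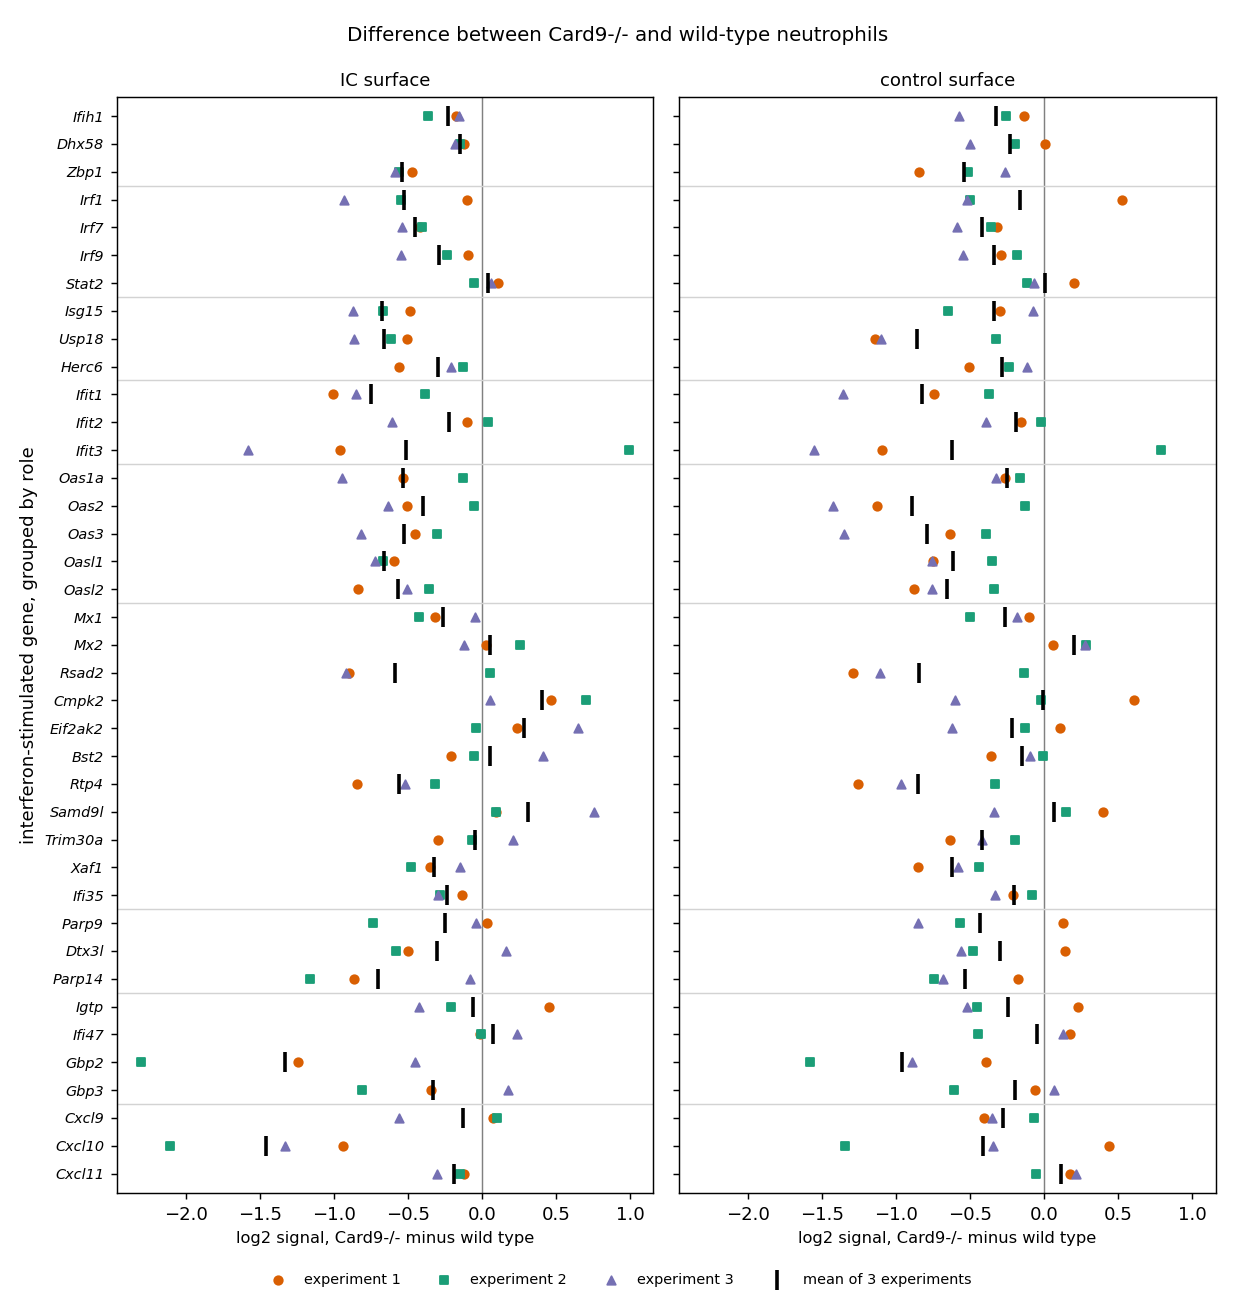
Difference in log2 signal between Card9-/- and wild-type neutrophils for the 39 measured interferon-stimulated genes, grouped by role, on the IC surface (left) and the control surface (right). Coloured points are the 3 experiments and black ticks their mean. Most points lie left of 0 on both surfaces, with medians of -0.31 on IC and -0.33 on the control surface, and Ifit3 in experiment 2 lies on the other side.

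On IC, the same comparison gave a similar median with a wider range. No member passed an adjusted p of 0.05 in limma (47 of all clusters did, 0.162%; 34 were lower, 0.117%, and 13 higher, 0.0449%). At an unadjusted p under 0.05, 17 members were lower and 0 higher, against 5.1% and 4.03% of clusters. The mean was below 0 for 32 of the 39 (53.6% of clusters) and above 0 for 7 (46.4%), 23 members were lower in all 3 experiments (59%, against 15.4% of clusters), and Cmpk2 and Samd9l were higher in all 3 (13.5% of clusters). The median difference was -0.31, from -1.46 for Cxcl10 to 0.41 for Cmpk2, where all clusters had a median of -0.01. Within experiments 1, 2 and 3 it was -0.35, -0.29 and -0.43, with 31, 32 and 30 members below 0. The arrays of the 2 surfaces are different arrays of the same experiments, so that a genotype gap of an experiment can recur on both. Agreement between the surfaces is thus no independent second result. A set of 19 members (48.7%) was lower in every experiment on both, against 4.28% of all clusters. It held all 5 OAS genes, Isg15, Usp18, Herc6, Irf7, Irf9, Ifit1, Zbp1, Ifih1, Xaf1, Rtp4, Parp14, Gbp2, Ifi35 and Mx1.

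Oasl1 was nearest to the threshold. It had 6.93, 7.21 and 6.91 in Card9-/- cells on IC and 7.52, 7.88 and 7.63 in wild-type cells on IC, without overlap and with nearly equal gaps in the 3 experiments (difference -0.66, SE 0.12, 0.63-fold, limma adjusted p = 0.065). Isg15 had 5.34, 5.58 and 4.53 in Card9-/- cells and 5.83, 6.25 and 5.40 in wild-type cells (difference -0.68, SE 0.13, limma adjusted p = 0.072). It was lower in each experiment, while the ranges of the groups overlapped because experiment 3 was low in both. Oasl1 and Isg15 passed when the experiment was fitted as a random effect, Oasl1 also among the brighter clusters alone, and Cxcl10 when only these 6 arrays were fitted.

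Members whose promoters hold an NF-kB match differed widely among themselves on IC. Cxcl10, the best known of the CXCR3 ligands, had 6.97, 7.68 and 7.57 in Card9-/- cells and 7.91, 9.79 and 8.90 in wild-type cells. The groups did not overlap, and the gap of -1.46 (SE 0.38, 0.36-fold, limma adjusted p = 0.18) was the largest of the list. Irf1 had 8.88, 8.74 and 8.69 in Card9-/- cells and 8.99, 9.29 and 9.62 in wild-type cells, with differences of -0.11, -0.55 and -0.93 (mean -0.53, SE 0.23). Bst2, which tethers budding viruses, differed by 0.05 (95% interval -0.28 to 0.38), with the experiments on both sides of 0. Together with Oasl1 and Irf7, Cxcl10 and Irf1 were the 4 members without overlap in this direction, against 1.03% of clusters, and 0 members were without overlap in the other (0.84%).

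Irf7 had 8.23, 8.38 and 8.50 in Card9-/- cells on IC and 8.65, 8.79 and 9.04 in wild-type cells on IC (difference -0.46, SE 0.10, limma adjusted p = 0.14). Zbp1 differed by -0.54 (SE 0.12), almost exactly as on the control surface, with 6.98, 7.38 and 6.77 in Card9-/- cells and 7.45, 7.94 and 7.36 in wild-type cells. Both were evenly lower across the experiments. Gbp2 had 5.86, 6.76 and 5.54 in Card9-/- cells and 7.10, 9.06 and 6.00 in wild-type cells, a difference of -1.33 (SE 0.28, 0.40-fold, limma adjusted p = 0.11) that was -2.30 in experiment 2 and -0.46 in experiment 3. The OAS family had a median of -0.54 and the ISG15 group of -0.66 on IC. The 11 measured members listed as other antiviral effectors were split, and their median was -0.05.

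**Figure D2:**
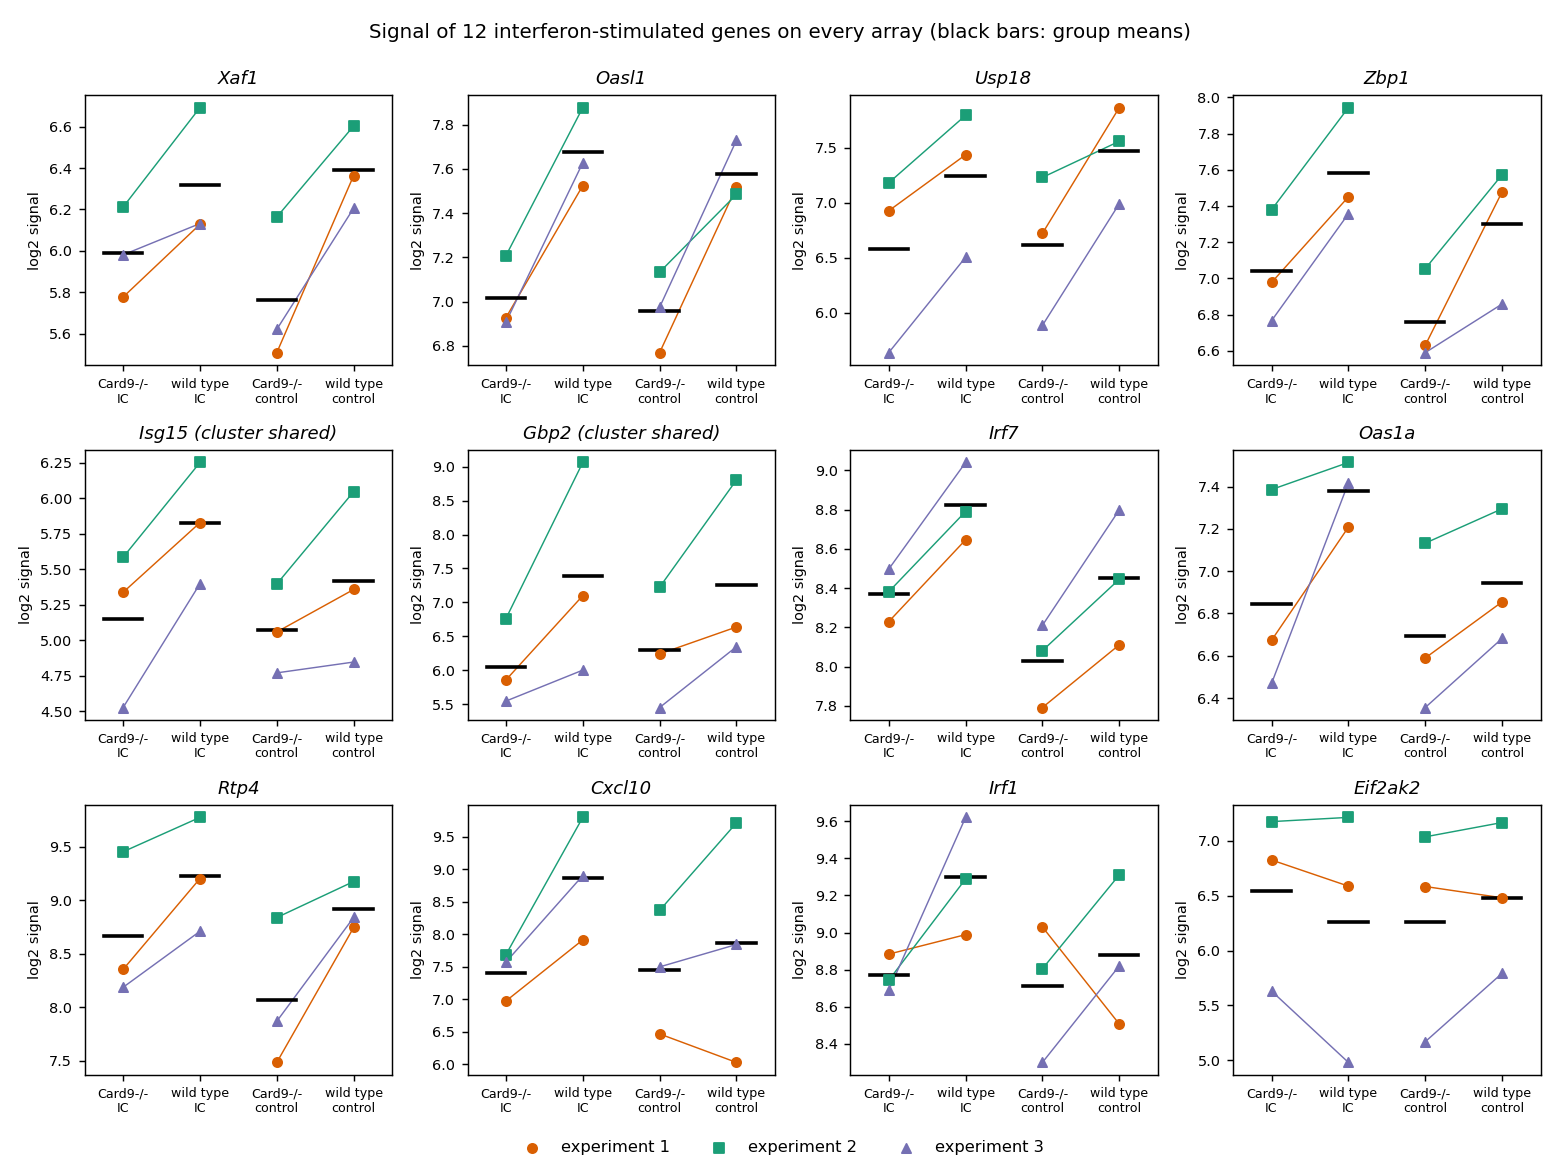
Log2 signal of 12 interferon-stimulated genes on every array, with groups in the order Card9-/- IC, wild type IC, Card9-/- control and wild type control; thin lines join the arrays of 1 experiment on 1 surface and black bars are group means. The lines of Oasl1, Zbp1 and Irf7 slope up to wild type in all 3 experiments on both surfaces, and those of Eif2ak2 do not.

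In wild-type cells the interferon-stimulated genes lay on both sides of 0 between IC and control. No member, and no cluster of the array (0%), passed an adjusted p of 0.05 in limma between IC and control. At an unadjusted p under 0.05, 6 members were higher and 0 lower, against 5.18% and 4.41% of clusters. The mean was above 0 for 18 (59.7% of clusters) and below 0 for 21 (40.3%), with 7 higher in all 3 experiments (18.8% of clusters) and 6 lower in all 3 (12.3%). For 0 members did the surfaces separate without overlap, against 0.902% of clusters higher and 0.822% lower. The median difference was -0.02 (all clusters 0.04), and within experiments 1, 2 and 3 it was 0.11, 0.09 and -0.12. In experiment 3, 27 members were lower on IC, against 13 in each of the other experiments, with Samd9l at -1.63, Parp9 at -1.03 and Igtp at -0.99. Irf7 had 8.65, 8.79 and 9.04 on IC and 8.11, 8.45 and 8.80 on the control surface, higher by 0.24 to 0.54 (mean 0.37, SE 0.10, limma adjusted p = 0.41). Cxcl10 had 7.91, 9.79 and 8.90 on IC and 6.03, 9.71 and 7.84 on the control surface, a mean difference of 1.01 (SE 0.38, 2.01-fold, limma adjusted p = 0.46). Its response ran from 1.88 in experiment 1 to 0.08 in experiment 2, where the control surface was already high.

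Isg15 had 5.83, 6.25 and 5.40 on IC against 5.36, 6.05 and 4.85 on the control surface in wild-type cells (difference 0.41, SE 0.13), and Oas1a had 7.21, 7.51 and 7.42 against 6.85, 7.30 and 6.68 (0.44, SE 0.14). Cxcl11 (0.36) and Zbp1 (0.28) made up the 6. By role, all 4 transcription factors (median 0.28) and all 3 CXCR3 ligands (median 0.36) had a mean above 0, while all 3 IFIT genes had one below 0 (median -0.25). Of the other OAS genes, Oasl1 lay at 0.10 and Oas2, Oas3 and Oasl2 between -0.26 and -0.14. Usp18 lay at -0.23. Irf1, whose promoter holds GAS and NF-kB matches, had 8.99, 9.29 and 9.62 on IC against 8.51, 9.31 and 8.82 on the control surface. It was higher in experiments 1 and 3 and level in experiment 2 (mean 0.42, SE 0.23).

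In Card9-/- cells no member or cluster (0%) passed an adjusted p of 0.05 in limma between IC and control either. At an unadjusted p under 0.05, 3 members were higher (1.87% of clusters) and 0 lower (1.15%). The mean was above 0 for 24 (46.4% of clusters) and below 0 for 15 (53.6%), with 9 higher in all 3 experiments (11.5% of clusters) and 5 lower in all 3 (14.7%), and the median was 0.06 (all clusters -0.01). Irf7 had 8.23, 8.38 and 8.50 on IC and 7.79, 8.08 and 8.21 on the control surface. It was the single member without overlap between the surfaces (difference 0.34, SE 0.10, limma adjusted p = 1.00; 0.646% of clusters). Rtp4 had 8.35, 9.45 and 8.19 on IC and 7.49, 8.84 and 7.87 on the control surface (0.60, SE 0.19), and Zbp1 differed by 0.28 (SE 0.12). Xaf1, with 5.78, 6.21 and 5.98 on IC against 5.51, 6.16 and 5.62, differed by 0.23 (SE 0.11). Cxcl10 had 6.97, 7.68 and 7.57 on IC against 6.46, 8.36 and 7.50 on the control surface, a mean difference of -0.03 (95% interval -0.86 to 0.79). Isg15 differed by 0.07 (95% interval -0.20 to 0.35) and Irf1 by 0.06 (-0.43 to 0.55).

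**Figure D3:**
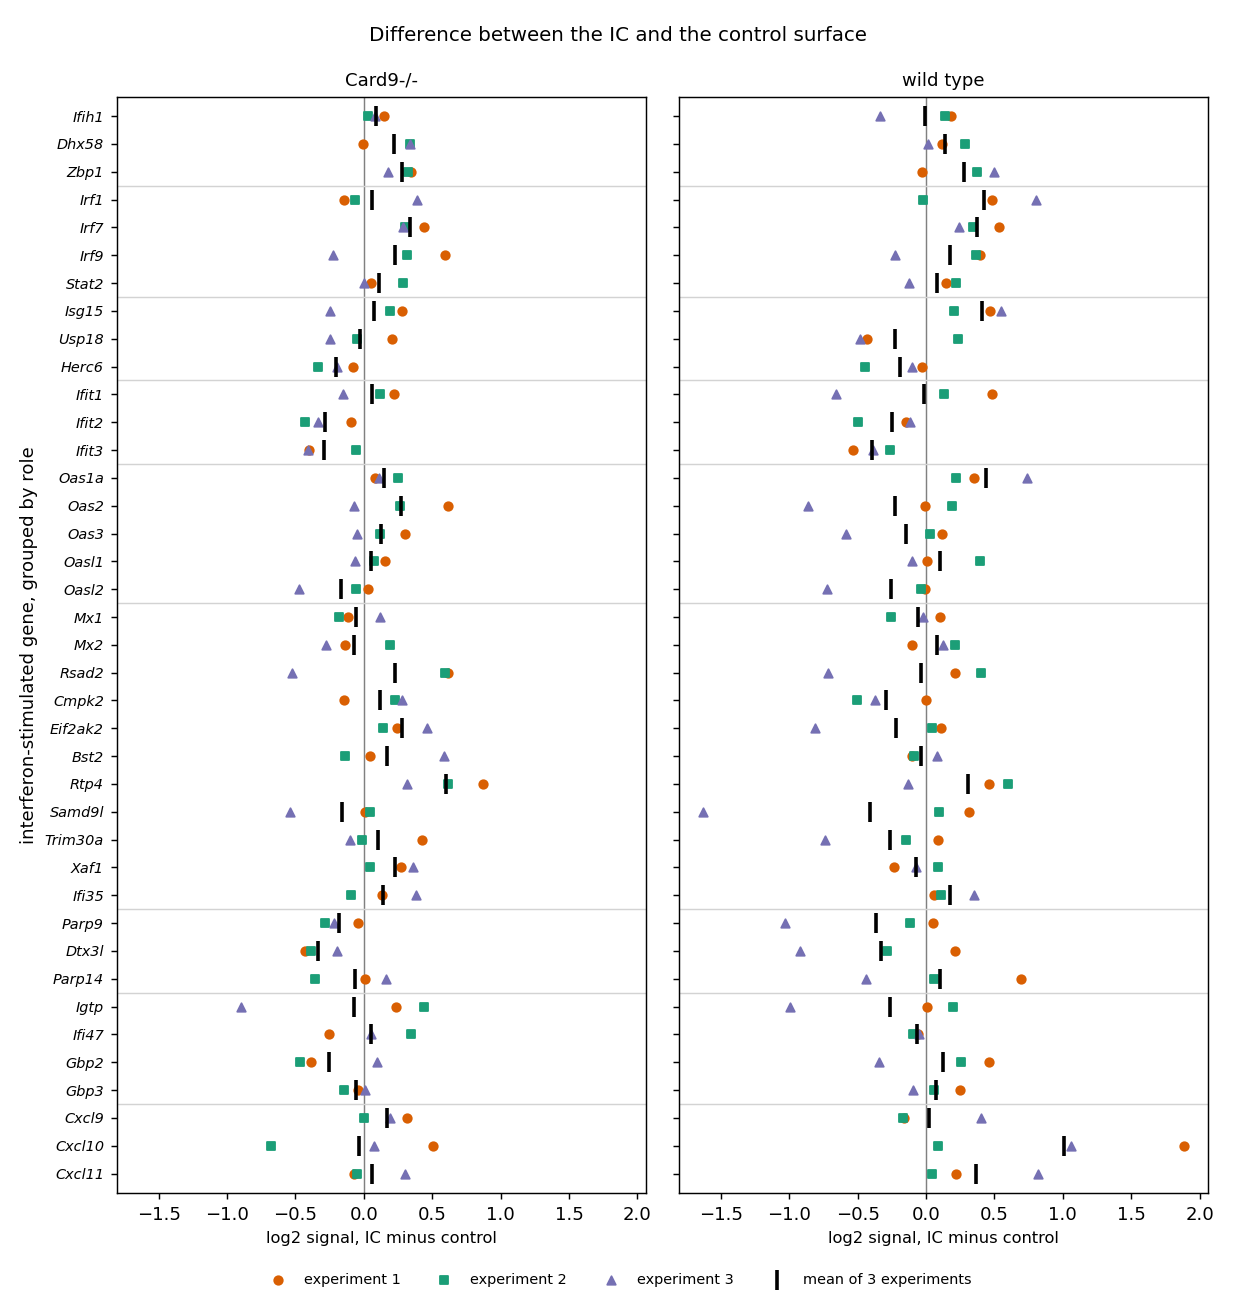
Difference in log2 signal between the IC and the control surface for the 39 measured interferon-stimulated genes in Card9-/- cells (left) and wild-type cells (right), with the 3 experiments as coloured points and their mean as a black tick. The points scatter around 0 in both genotypes, with medians of 0.06 in Card9-/- cells and -0.02 in wild-type cells, and Irf7 lies right of 0 in every experiment in both.

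The IC effect itself was then compared between the genotypes, as the effect in Card9-/- cells minus that in wild-type cells. No member or cluster (0%) passed an adjusted p of 0.05 in limma, and 0 members reached an unadjusted p under 0.05, against 2.65% of clusters below 0 and 1.03% above. The median over the members was 0.08 (all clusters -0.03), 16 members were below 0 and 23 above (56.4% and 43.6% of clusters), with 5 members below 0 in all 3 experiments (16.6% of clusters) and 7 above 0 in all 3 (12.4%). Cxcl10 had a difference of effects of -1.38, -0.76 and -0.99 in the 3 experiments (mean -1.04, 95% interval -2.21 to 0.12, limma adjusted p = 1.00). Gbp2 followed with -0.38 (95% interval -1.25 to 0.50), below 0 in experiments 1 and 2 and above 0 in experiment 3. Irf1 at -0.36 (-1.06 to 0.34) and Isg15 at -0.33 (-0.73 to 0.06) were below 0 in all 3 experiments. In the other direction, Eif2ak2 gave 0.14, 0.09 and 1.28 (mean 0.50, 95% interval 0.00 to 1.00) and Trim30a 0.34, 0.13 and 0.64 (mean 0.37, -0.15 to 0.88). In experiment 3, Eif2ak2 had 5.63 on IC against 5.17 on the control surface in Card9-/- cells, and 4.98 against 5.79 in wild-type cells. For Irf7 the effects differed by -0.03 (-0.35 to 0.28). With 3 experiments, differences of effects as small as the median genotype gap were not detectable for most members.

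Genes upstream of the list differed unevenly between the genotypes. The 9 measured interferon receptor and JAK-STAT genes had a median of -0.44 in Card9-/- against wild-type cells on IC, with 8 below 0, and of -0.26 on the control surface, with all 9 below 0. At an unadjusted p under 0.05, 3 of the 9 were lower on IC (5.1% of clusters) and 1 on the control surface (2.22% of clusters). Tyk2, the kinase on IFNAR1, averaged 7.55 in Card9-/- cells and 8.76 in wild-type cells on IC (difference -1.22, SE 0.31, limma adjusted p = 0.18), and Ifnar1 9.35 and 9.89 (-0.55, SE 0.23). The gap of Tyk2 was -1.88, -1.51 and -0.26 in experiments 1, 2 and 3, and that of Ifnar1 -0.81, -0.48 and -0.34. Interferon genes themselves, read on 18 clusters for 21 genes, had medians of -0.09 on IC and 0.10 on the control surface, and Ifnb1 differed by 0.17 (SE 0.10) between IC and control in wild-type cells. Their signals were low: the list had a median of 4.69 to 5.61 on an array, where all clusters had 5.27 to 5.93. Ifnb1 had 3.25 to 4.62, so that a change in these genes could go unseen. The 15 measured sensors and adaptors upstream of interferon had a median of -0.09 on IC, with 12 below 0. Theirs on the control surface was -0.07, with 11 below 0. At an unadjusted p under 0.05, 4 were lower on IC (5.1% of clusters) and 1 on the control surface (2.22% of clusters). Irf5 differed by -1.22 on IC (SE 0.25, limma adjusted p = 0.11). Ikbke differed by -2.15 on IC (SE 0.51, limma adjusted p = 0.17), with -3.39, -2.76 and -0.29 in the 3 experiments. The 12 genes listed as negative regulators had a median of -0.12 on IC, with 9 below 0. On the control surface their median was -0.11, with 10 below 0. Among them, Socs3, an inhibitor of JAK signalling, was lower in every experiment on both surfaces. It differed by -0.48 on IC (SE 0.12, limma adjusted p = 0.18) and by -0.56 on the control surface (SE 0.12, limma adjusted p = 0.38). A set of 80 clusters of other interferon-stimulated genes had 51 below 0 on IC (63.8%, against 53.6% of all clusters; median -0.10). Among the 80 was the cluster of Irgm2, which also represents the member Igtp. On the control surface 66 were below 0 (82.5%, against 42.6% of all clusters; median -0.16). At an unadjusted p under 0.05, 14 were lower and 3 higher on IC, against 5.1% and 4.03% of clusters. On the control surface 17 were lower and 0 higher, against 2.22% and 2.43%. Of these genes, Ifi27l2a differed by -0.998 (SE 0.25) on IC and by -0.90 (SE 0.25) on the control surface.

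Genes of NF-kB feedback and NF-kB targets, the branch that CARD9 feeds, were read on the same arrays. Of 24 such genes on IC, 5 passed an adjusted p of 0.05 in limma, all lower in Card9-/- cells (Il1a, Nfkbid, Tnf, Nfkbib and Map3k8), against 0.117% of clusters. Their median was -1.25 in Card9-/- against wild-type cells on IC, where the interferon-stimulated genes had -0.31, and -0.50 on the control surface, where these had -0.33. Between IC and control the NF-kB genes had a median of -0.10 in Card9-/- cells and 0.70 in wild-type cells, while the interferon-stimulated genes had 0.06 and -0.02. The difference of effects was -0.76 for the NF-kB genes, with 15 of 24 lower at an unadjusted p under 0.05, and 0.08 for the interferon-stimulated genes, with 0 of 39. The NF-kB list was chosen with results on these arrays known and is no independent evidence of its direction. Leaving out Irf1, Cxcl9, Cxcl10, Cxcl11 and Gbp2, some of the members that NF-kB or interferon gamma can also drive, gave a median of -0.30 on IC and -0.33 on the control surface. The rest still held Oasl1 and Bst2, with NF-kB matches, and Igtp, with a GAS match. The part of NF-kB or interferon gamma in the member signals was not tested.

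**Figure D4:**
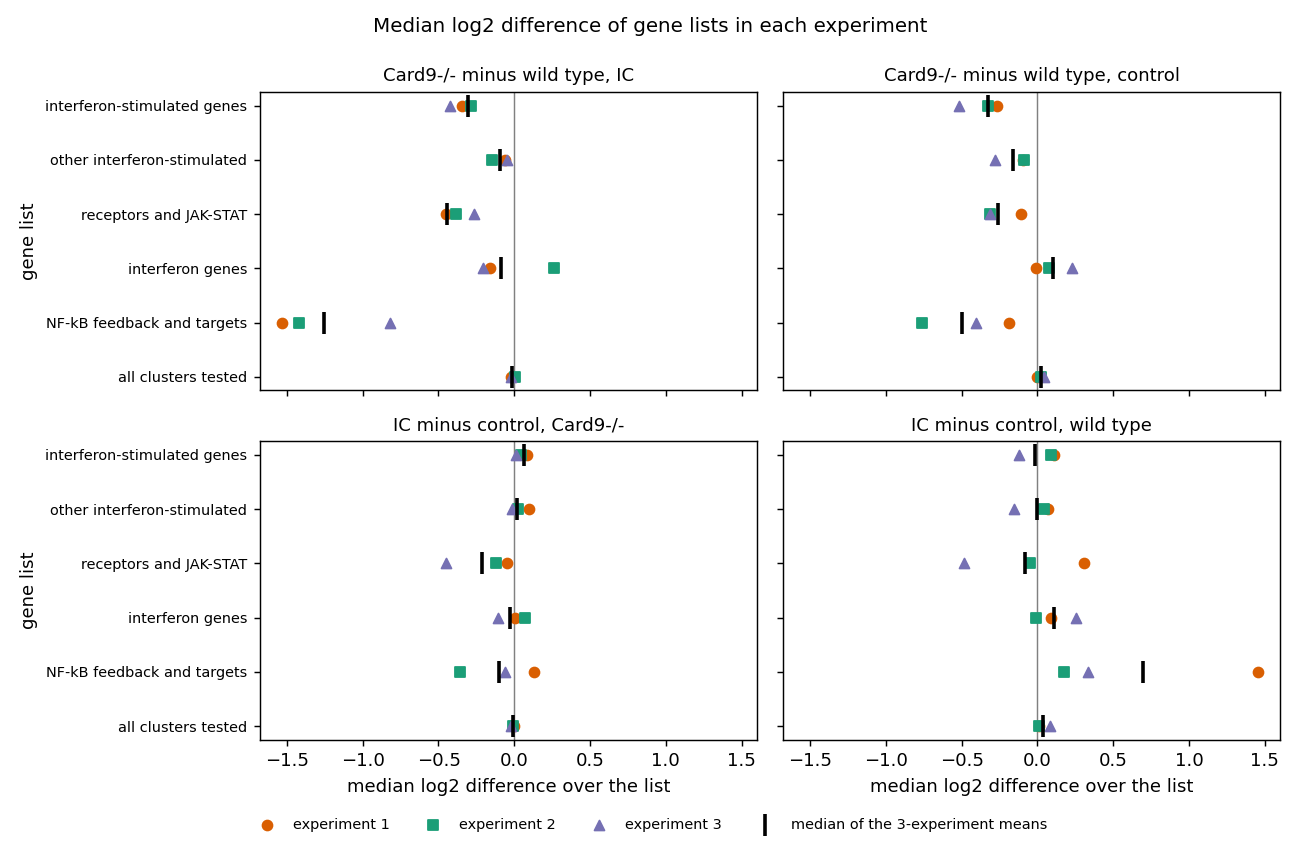
Median log2 difference of 5 gene lists and of all clusters tested in each experiment, for Card9-/- minus wild type (top; IC left, control right) and IC minus control (bottom; Card9-/- left, wild type right). Black ticks are medians of the 3-experiment means. Interferon-stimulated genes lie below 0 in every experiment in both top panels and near 0 in both bottom panels, where the NF-kB genes reach 0.70 in wild-type cells.

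Markers of other cells also differed between the genotypes, some lists upward and some downward, and most unevenly across the experiments. The 11 measured B cell markers had a median difference of 0.65 in Card9-/- against wild-type cells on IC, with 11 above 0, and of 0.38 on the control surface, with 9 above 0. None of them passed an adjusted p of 0.05 in limma, and at an unadjusted p under 0.05, 4 were higher on IC (4.03% of clusters) and 0 on the control surface (2.43% of clusters). The median level of the list on an array was 5.42 to 8.09 in Card9-/- cells and 5.35 to 7.56 in wild-type cells on IC, and 5.28 to 7.76 and 5.45 to 7.12 on the control surface. Within experiments 1, 2 and 3 the median difference of the B cell markers was 1.17, 0.03 and 0.53 on IC and 0.79, -0.03 and 0.36 on the control surface, beside -0.35, -0.29 and -0.43 and -0.27, -0.33 and -0.52 for the interferon-stimulated genes.

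Eosinophil, basophil and mast cell markers had medians of 0.42 on IC and 0.32 on the control surface, with all 12 and 11 of 12 above 0. Experiment 3 carried these values: the medians within experiments 1, 2 and 3 were -0.08, 0.19 and 0.85 on IC and -0.19, 0.20 and 0.92 on the control surface. Erythroid markers lay on the same side as the interferon-stimulated genes, with medians of -0.24 on IC and -0.26 on the control surface and 5 of 7 below 0 on each. Within experiments 1, 2 and 3 they were -0.52, -0.27 and -0.03 on IC and -0.81, -0.21 and 0.42 on the control surface. The haemoglobin gene Hba-a1, named after its values were seen and read on a cluster shared with Hba-a2, had 8.41, 11.99 and 11.48 in Card9-/- cells on IC and 11.80, 12.26 and 11.51 in wild-type cells on IC. On the control surface it had 8.41, 12.22 and 11.16 in Card9-/- cells and 12.36, 12.43 and 10.58 in wild-type cells, so that the wide gap was in experiment 1. In experiment 3 the erythroid markers were higher in Card9-/- cells on the control surface, where 35 of the 39 interferon-stimulated genes were lower.

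Monocyte and macrophage markers had medians of -0.05 on IC and -0.01 on the control surface. Within experiments 1, 2 and 3 these were 0.09, -0.28 and -0.11 on IC and -0.08, -0.25 and -0.01 on the control surface, so that in experiment 2, with 10 and 11 of 13 below 0, they came near the -0.29 and -0.33 of the interferon-stimulated genes. The markers of plasmacytoid dendritic cells, a major source of interferon, had medians of 0.03 and 0.09, T and NK cell markers 0.16 and 0.12, immature neutrophil and promyelocyte markers 0.03 and -0.01, and neutrophil markers 0.08 and -0.07, on IC and on the control surface. Within experiments 1, 2 and 3 the immature list had -0.13, 0.16 and 0.03 on IC and -0.45, 0.30 and 0.29 on the control surface. The neutrophil list had 0.12, 0.12 and -0.05 on IC and -0.08, 0.08 and -0.22 on the control surface. Of its 16 markers, 13 were above 0 on IC and 14 below 0 on the control surface. The plasmacytoid list had 0.06, -0.03 and 0.20 on IC and 0.06, -0.10 and 0.39 on the control surface. On a log2 scale no marker has a value of 0, and the part of other cells in the interferon-stimulated signals was not tested beyond these values.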

How the data were processed

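Total RNA (150 ng a sample) of 12 samples was hybridized to an Affymetrix mouse gene array. The authors deposited log2 signals per transcript cluster. The summarization and normalization method was not given in the sources used here, so that differences in level between experiments may come from that processing. Of 35556 rows, 6617 with identifiers below those of the platform annotation were left out, and 28939 clusters were tested without a filter or further normalization (476 have values identical to an earlier cluster). The annotation names 1 gene for 21789 clusters, several for 1621 and none for 5529. A gene with several clusters was represented by the one that names it alone, with the highest mean signal.

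One linear model held all 4 groups (lmFit and eBayes of limma 3.58.1 in R 4.3.3), and the experiment was its fixed block, since every experiment holds all 4 groups. Deviations from group means correlated at 0.67 to 0.87 for the same experiment number (18 pairs) and at -0.73 to 0.36 for different numbers (36 pairs). There were 5 comparisons. Two-sided p-values were corrected within a comparison by Benjamini-Hochberg, over all clusters, and intervals are 95% intervals of the fit. The procedure was tested on simulated data. Alternatives were median centring, quantile normalization, no block, a random block, a limit to clusters brighter than the median, limma-trend, robust eBayes, only the arrays compared, a factorial model without moderation, other clusters or members of the list, and leaving out each experiment. Values on every array are given for the 4 members with the smallest p among those with 1 direction in all 3 experiments, in each comparison, and for Isg15, Irf7, Irf1 and Cxcl10. Of the other 15 lists, those not made of cell markers or sex-linked genes had up to 4 genes per comparison named by the same rule. Map3k8 was named because it passed the adjusted threshold, and Ifnb1 and Hba-a1 were added after their values were seen. The members, the lists and the rules were chosen with earlier results of these data known. The motif search and figures used Python 3.11.15 with numpy 2.4.6, pandas 2.3.3 and matplotlib 3.10.9. Promoters and gene types are from RefSeq.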

Additional observations from a re-analysis of the deposited data

How the results depend on the processing

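With 3 arrays per group and 6 residual degrees of freedom, small differences of single genes could not be told from the spread, and nothing about depth can be read from array signals. The counts of members passing an adjusted p of 0.05 were the same under 56 other settings of the 5 comparisons, and differed under 3. These concerned Card9-/- against wild type on IC. There 2 members passed with the experiment as a random replicate block (Oasl1, adjusted p = 0.023, and Isg15, 0.047), 1 with only clusters above the median signal (Oasl1, 0.049) and 1 with the model fitted on these 6 arrays alone (Cxcl10, 0.037), all by limma, where 0 passed as reported. Without the replicate block 0 members passed in any comparison, and those at an unadjusted p under 0.05 numbered 1 on IC (0.418% of clusters lower) and 2 on the control surface (0.166% of clusters lower), in place of 17 each. Leaving out 1 experiment at a time left 0 members passing in each comparison. The median on IC then ran from -0.33 to -0.32, and on the control surface from -0.39 to -0.24. Without experiment 3 the median IC effect in wild-type cells was 0.10 in place of -0.02, and the median difference of the IC effects was -0.013 in place of 0.08, so that neither has a settled sign; without 1 experiment the IC effect in wild-type cells ran from -0.073 to 0.10 and the difference of effects from -0.013 to 0.10. The cause was not tested. Of the values of the 4 members named first in each comparison, none changed direction, 230 stayed on their side of the threshold and 3 passed it, all in the settings above. Quantile normalization and median centring of each array kept the sign of every median.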
